A study of Mus musculus with 2 samples.

Results

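The 9 genes Nfe2, Nfe2l1, Nfe2l2, Nfe2l3, Bach1, Bach2, Maff, Mafg and Mafk encode the subunits of the NF-E2 group of leucine zipper transcription factors, and their chromatin accessibility in mouse erythroid progenitors is described here. They were chosen by name, as the p45 NF-E2, NRF, BACH and small MAF genes, out of 21951 protein-coding genes of GENCODE M21. Peak records with shared or adjoining bases were joined into 1 region. A region was given to a gene when its midpoint lay in the gene body, or when the nearest protein-coding start within 100 kb of it belonged to that gene. Of 24394 regions in the pooled list, called on the pooled reads of the libraries and thresholded on the irreproducible discovery rate (IDR, a measure of how well peaks repeat between 2 sets), 26 fell to these genes.

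The proteins of this family bind DNA as pairs. One partner is a small MAF protein (MAFF, MAFG or MAFK), which binds DNA but has no activation domain, and the other is a cap'n'collar or BACH protein. The p45 subunit encoded by Nfe2 is the erythroid and megakaryocytic partner. NRF1 and NRF2, encoded by Nfe2l1 and Nfe2l2, switch on antioxidant and proteasome genes. BACH1 and BACH2 repress through the same sites, and heme binds BACH1 and releases it from them. The shared binding site is an AP-1 core extended by the letters TGC, and a looser version of it is called the antioxidant response element (ARE).

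The cells were colony-forming unit erythroid (CFU-E) cells, committed red cell progenitors, taken as primary cells from male C57BL/6J mice in adulthood (age 5-6 weeks). No mutation, transgene or treatment is given in the labels. The assay was ATAC-seq, which marks open chromatin by where the Tn5 transposase can insert adapters. There were 2 libraries of 50000 cells each, numbered as biological replicates 1 and 2, from separate biosamples that carry the same donor identifier, so they form 1 group and there is no comparison between conditions. The labels do not say whether animals were pooled, nor how the cells were sorted.

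Of the CFU-E and erythroid markers, all 7 had an accessible promoter, against 3 of 5 megakaryocyte markers (Itga2b, Gp1ba and Gp9 had one, Pf4 and Ppbp had none). Of all protein-coding genes, 45.8% had one. Each replicate's own thresholded list gave 6 of 7 and 2 of 5, since Alas2 and Gp9 had none there. None of the 5 granulocyte and monocyte, 3 B cell, 2 T cell or 2 endothelial markers had one in the pooled list. In the conservative list 1 of the 3 B cell markers had one, at a fold of 4.64. The 24394 regions divide into 12354 promoter regions, with a midpoint within 1 kb of any annotated start, and 12040 distal ones. Read depth was not known, since the files hold peaks and no read counts. The values given below per replicate stand side by side with no SD, because over the whole list the 2 libraries differed no more than the sets of the other ranked list did: the SD of the log2 ratio of −log10 p was 0.87 between the replicates and 0.95 in the other ranked list, which was taken to compare pseudoreplicates. Over the 53 records in regions of the 9 genes the order was the other way, with an SD of 1.37 between the replicates and 1.28 in the other ranked list. On the whole-list values the libraries were counted as 1 sample.

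The 9 accessible sequences printed here were picked because they carry the family's own binding site or the GATA, KLF and CCAAT-box (NFY) motifs of the regions described below. Each is the stretch of its region around the matches, without untranslated or coding bases, read from the GRCm38 (mm10) genome on the strand from which its gene is transcribed, and every match named for it is in capitals. The first 3 hold the NFE2 motif, TGC directly followed by TGACTCA or TGAGTCA on either strand.
Bach1, region 4 (chr16:87713123-87713252, plus strand): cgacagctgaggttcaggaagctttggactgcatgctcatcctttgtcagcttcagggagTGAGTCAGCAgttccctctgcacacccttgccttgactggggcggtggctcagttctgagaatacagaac
Bach1, region 2 (chr16:87700042-87700171, plus strand): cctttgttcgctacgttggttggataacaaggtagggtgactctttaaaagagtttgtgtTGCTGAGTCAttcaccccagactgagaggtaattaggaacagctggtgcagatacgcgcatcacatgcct
Mafg, region 2 (chr11:120630149-120630276, minus strand): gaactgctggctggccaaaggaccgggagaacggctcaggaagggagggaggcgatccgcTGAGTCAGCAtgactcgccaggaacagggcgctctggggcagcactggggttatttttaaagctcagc
Next is the Mafk intron, with an AP1 match (TGACTCA or TGAGTCA) and an ARE match (TGACNNNGC) in capitals.
Mafk, region 2 (chr5:139795004-139795118, plus strand): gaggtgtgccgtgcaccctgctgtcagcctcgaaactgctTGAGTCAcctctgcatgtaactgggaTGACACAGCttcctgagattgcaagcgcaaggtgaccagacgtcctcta
Then come regions with GATA matches (AGATAA or AGATAG or TGATAA or TGATAG) or GATA pair matches (CTG, then 7, 8 or 9 bases, then a GATA match), the arrangement that GATA1 and TAL1 are known to share. The first of them also has a KLF match (CCACACCC or CCACGCCC or CCCCACCC or CCCCGCCC) in capitals.
Nfe2, region 4 (chr15:103258480-103258598, minus strand): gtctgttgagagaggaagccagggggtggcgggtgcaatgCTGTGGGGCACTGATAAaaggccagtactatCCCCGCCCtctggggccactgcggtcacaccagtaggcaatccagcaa
Nfe2, region 1 (chr15:103251700-103251865, minus strand): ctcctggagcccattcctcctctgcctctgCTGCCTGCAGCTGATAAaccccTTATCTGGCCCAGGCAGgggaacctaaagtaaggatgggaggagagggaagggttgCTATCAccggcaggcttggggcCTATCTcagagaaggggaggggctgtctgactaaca
Bach2, region 1 (chr4:32170597-32170727, plus strand): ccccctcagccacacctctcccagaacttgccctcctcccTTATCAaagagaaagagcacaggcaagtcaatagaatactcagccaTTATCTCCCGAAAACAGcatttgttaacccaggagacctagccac
The last pair are 5′ promoters with repeated NFY matches (CCAAT) in Nfe2l1 and repeated KLF matches in Mafk.
Nfe2l1, region 3 (chr11:96830008-96830197, minus strand): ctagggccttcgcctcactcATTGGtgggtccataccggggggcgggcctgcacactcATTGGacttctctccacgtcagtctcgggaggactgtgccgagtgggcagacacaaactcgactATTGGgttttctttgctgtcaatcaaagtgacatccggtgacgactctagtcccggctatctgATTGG
Mafk, region 1 (chr5:139791351-139791511, plus strand): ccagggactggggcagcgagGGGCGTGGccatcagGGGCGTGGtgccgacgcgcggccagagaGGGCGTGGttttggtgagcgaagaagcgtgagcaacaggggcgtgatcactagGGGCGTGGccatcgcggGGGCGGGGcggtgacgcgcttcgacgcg

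An accessible promoter, meaning a region that overlaps the 1 kb to either side of any annotated start of the gene, was found at 8 of the 9 genes, against 45.8% of all protein-coding genes. Maff, a small MAF gene, was the exception. A region of any kind was assigned to the same number of genes, 8 of 9, against 52.9% of protein-coding genes, and a distal region to 4 of 9, against 27.6%. Of the 10049 protein-coding genes with an accessible promoter, 42.1% had a distal region, which is near the 4 of 9 of the family. The 9 genes had a median of 3 regions each, protein-coding genes a median of 1, and protein-coding genes with an accessible promoter a median of 2. Mafg had 6 regions, Bach1 5, Nfe2 and Bach2 4 each, Nfe2l1 3, Mafk 2, and Nfe2l2 and Nfe2l3 1 each. At least 3 regions, as 5 of the 9 genes had, were found at 14.3% of protein-coding genes, and at least 4 regions at 8.34%. Among protein-coding genes with an accessible promoter these shares were 27.9% and 16.4%.

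By fold, the promoters of the family were not among the stronger ones of the list, while several ranked higher by −log10 p, as described below. Fold enrichment, the authors' ratio of a peak's signal over local background, lay between 4.99 at Mafg and 10.6 at Nfe2l1 for the strongest promoter region of each of the 8 genes. The median over the 10049 accessible promoters was 10.7, so none of the 8 was above it. Nfe2l1 stood closest, since 51.6% of accessible promoters had a fold at least as high. For Mafg that share was 96.9%, for Bach2 89.6%, for Mafk 85.5%, for Bach1 85.4%, for Nfe2l2 81.4%, for Nfe2 80.0% and for Nfe2l3 72.2%.

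In the pooled list the distal regions stood differently. Of the 9 distal regions, 7 had a fold above the median of all distal regions, 6.52, whereas 2 of the 17 promoter regions had a fold above the median of all promoter regions, 9.23. Bach1 held 4 of the distal regions and Bach2 held 3, with Mafg and Mafk holding 1 each. The 2 distal regions below the median of the pooled list were those of Mafg and Mafk. In each replicate's own list, the Bach1 region 1.13 kb from a start and the Bach2 region 67.8 kb upstream were below the distal median too. For these, 56.9% and 56.6% of distal regions in replicate 1 had a fold at least as high, and 58.9% and 62.2% in replicate 2.

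**Figure D1:**
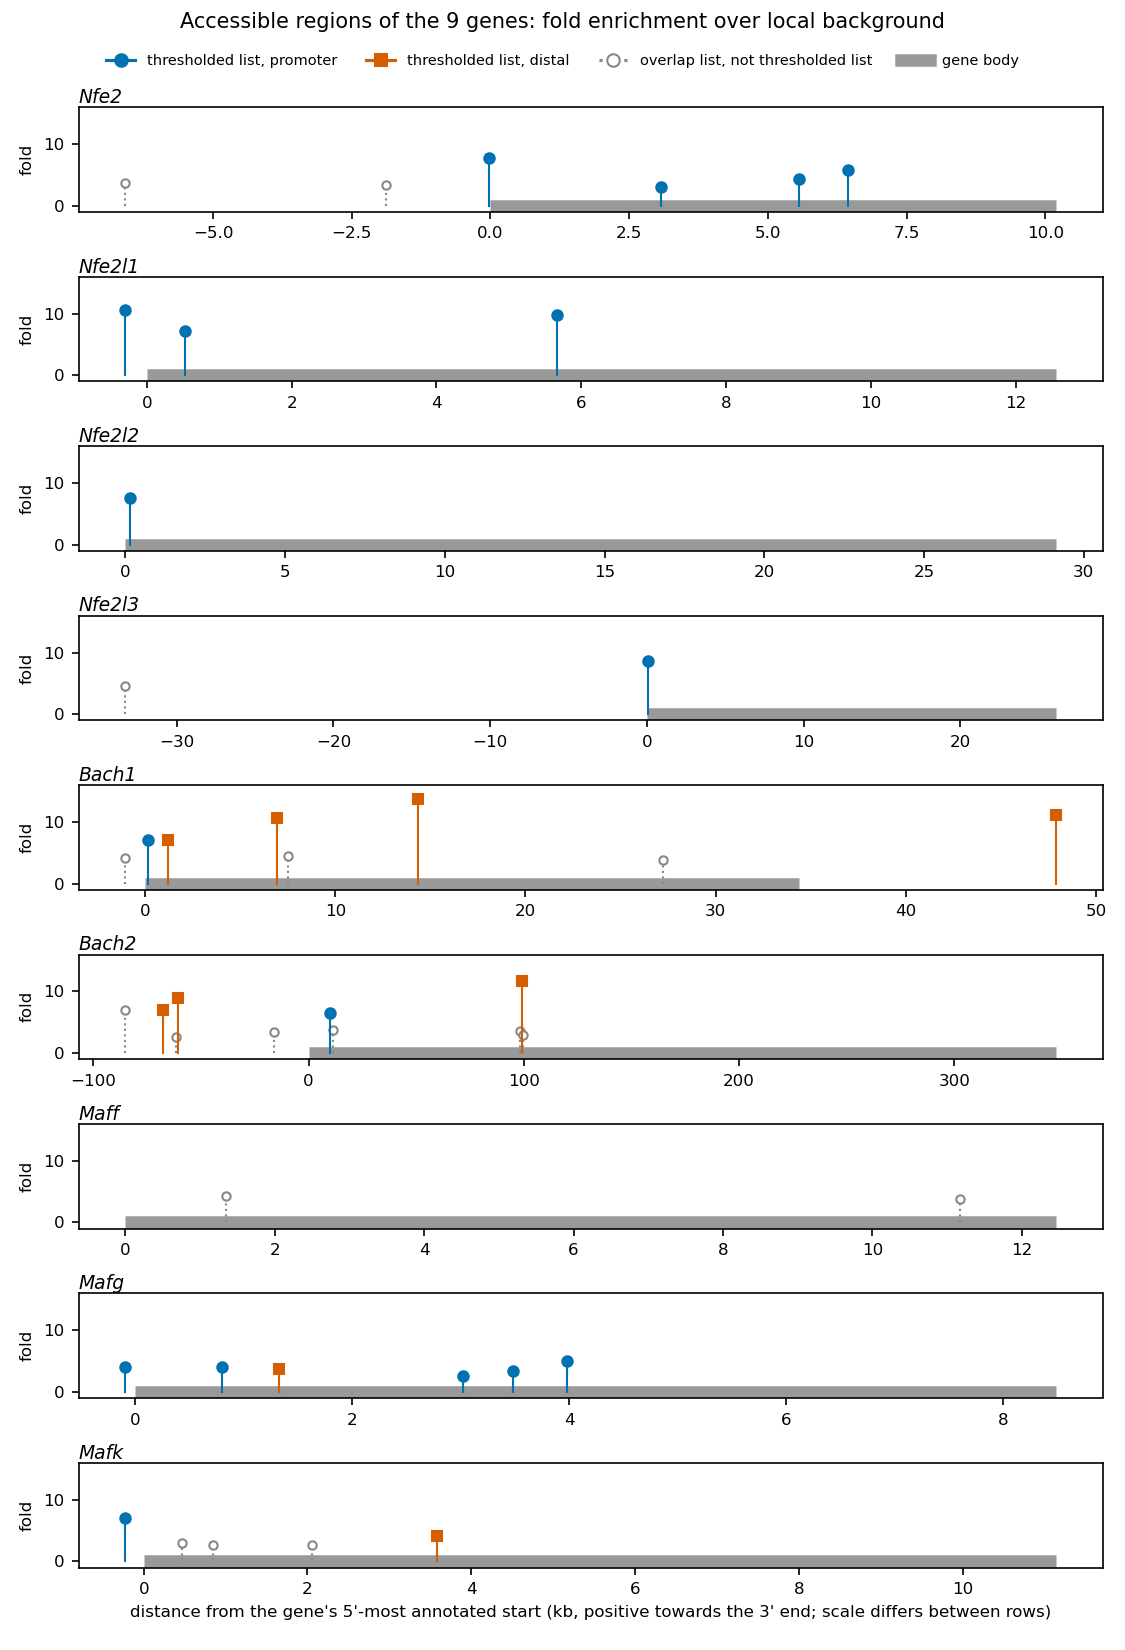
Regions of each of the 9 genes, by distance of the region's midpoint from the gene's 5′-most annotated start (x axis, kb, with a different scale in each row) and fold enrichment (y axis). Filled marks are regions of the thresholded list, promoter (circles) or distal (squares), open circles are regions of the overlap list that are absent from the thresholded list, and grey bars are gene bodies. The highest mark is the Bach1 intron region at a fold of 13.7, and Maff has open circles alone.

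Nfe2 encodes the p45 subunit and was accessible from its 5′ start into its body. It spans 10.2 kb on the minus strand of chromosome 15 (chr15:103248212-103258403) with 10 annotated starts, of which 9 had a region within 1 kb. The region at the 5′ start (chr15:103257874-103258996) was the strongest of its 4, with a fold of 7.80 in the pooled list, 7.35 in replicate 1 and 7.35 in replicate 2. A region in an intron close to an internal start (chr15:103251597-103252319) had a fold of 5.79, with 5.95 in replicate 1 and 5.49 in replicate 2. These are the 2 Nfe2 regions with GATA pair matches at their summits. In the intronic one, both GATA pair matches face each other a few bases apart, as the capitals show. Its summit window was poor in CpG, with an observed over expected ratio of 0.0608, the lowest of the 26. Another intronic region (chr15:103252612-103253059) had a fold of 4.27 and was found in both replicates, at 4.10 and 4.58. The fourth (chr15:103255145-103255504), over an exon of untranslated sequence, had a fold of 3.00 and was in neither replicate's thresholded list, though both replicates' overlap lists held it at 3.02 and 2.95.

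Like Nfe2, the 3 NRF genes held promoter regions alone, with no distal region in the thresholded list. Nfe2l1, for NRF1, a membrane-anchored factor known for restoring proteasome genes, had 3 regions in a 12.6 kb gene on the minus strand of chromosome 11. The 5′ one (chr11:96829846-96830682) had a fold of 10.6, with 9.94 in replicate 1 and 10.2 in replicate 2, and the highest −log10 p of the 26 regions, 227. Only 2.63% of promoter regions had a −log10 p at least as high. A second region (chr11:96829164-96829706), 0.533 kb inside the gene, had a fold of 7.12, with 6.88 in replicate 2 and slightly more in replicate 1. The third (chr11:96824098-96824501) lay at an internal start 5.67 kb inside the gene and had a fold of 9.77, with 9.72 in replicate 1 and 8.90 in replicate 2. The 5′ region and this internal one were the only 2 of the 26 with NFY matches at their summits, 4 in the 5′ region and 3 in the internal one, against 26.8% of all regions with at least 1.

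Nfe2l2, for NRF2, the KEAP1-controlled activator of antioxidant genes, had 1 region of 2149 bp over its start (chr2:75703429-75705577), the widest of the 26. It had a fold of 7.60 in the pooled list, 7.37 in replicate 1 and 7.52 in replicate 2. The region also covers the start of E030042O20Rik, a processed transcript, and accessibility cannot be divided between them. Nfe2l3, for NRF3, a family member studied less than the others, had 1 region of 511 bp at its start (chr6:51432491-51433001). There the fold was 8.68 in the pooled list, 9.14 in replicate 1 and 6.17 in replicate 2, the widest gap between replicates among the 22 regions found in both. Its −log10 p was 35.4, and 79.9% of promoter regions had a value at least as high, although 54.7% had a fold at least as high. The 2 measures therefore rank this promoter differently.

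**Figure D2:**
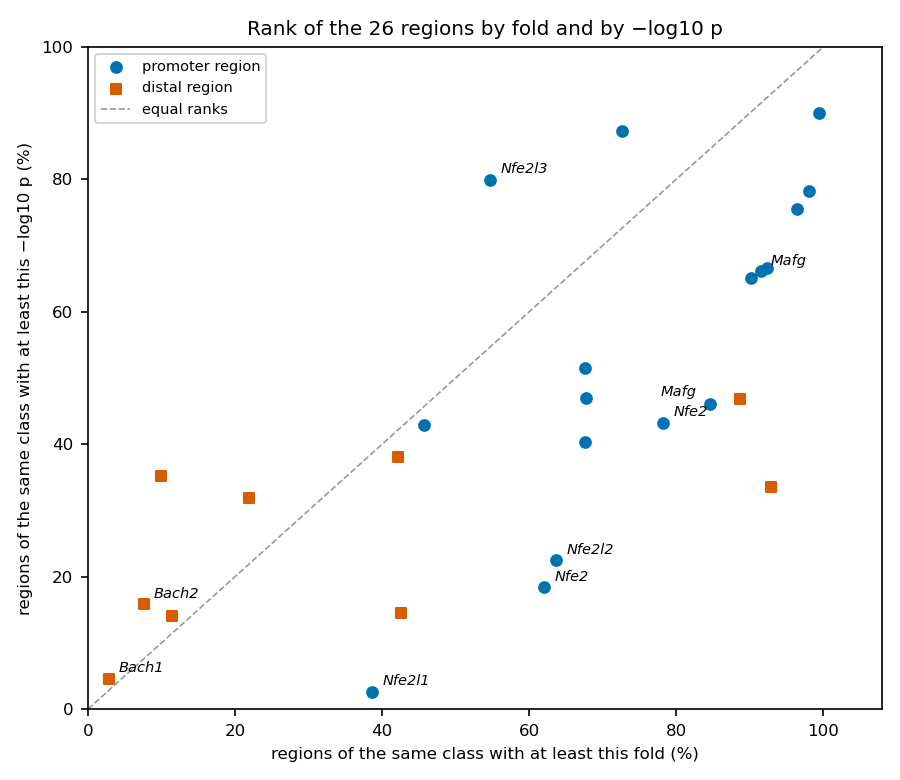
The 26 regions by the percentage of regions of the same class (promoter or distal) with at least their fold (x axis, %) and with at least their −log10 p (y axis, %), so that the strongest regions lie near the origin. Circles are promoter regions, squares distal regions and the dashed line equal ranks; the Bach1 square at 2.82% by fold and 4.59% by −log10 p lies nearest the origin, the Nfe2l1 5′ promoter is at 38.6% and 2.63%, and Nfe2l3 lies above the line.

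All promoter regions of the family except those of Nfe2l3 and Bach2 ranked higher by −log10 p than by fold, as the plot of both ranks shows. Those of Nfe2l3 and Bach2 ranked lower by −log10 p. Fold is a ratio to the local background and −log10 p also grows with the number of reads in a peak. Which of the 2 better reflects accessibility at these genes was not tested.

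Bach1, the heme-responsive repressor, had the region with the highest fold of the family, and it lay inside the gene and not at the start. The gene spans 34.4 kb on the plus strand of chromosome 16 (chr16:87698945-87733346), and the promoter region (chr16:87698616-87699537) had a fold of 7.11, with 7.18 in replicate 1 and 6.50 in replicate 2. In the intron 14.3 kb from the nearest start, a region (chr16:87712840-87713738) reached a fold of 13.7, with 13.8 in replicate 1 and 12.1 in replicate 2. Of all distal regions, 2.82% had a fold at least as high and 4.59% had a −log10 p at least as high as its value of 148. An NFE2 match starts 18 bp from its summit.

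The other 3 distal Bach1 regions lay on both sides of it. The intronic region 6.90 kb from the nearest start (chr16:87705577-87706230) had a fold of 10.7, with 9.35 in replicate 1 and 10.1 in replicate 2, and GATA matches at its summit. The intronic region 1.13 kb from a start (chr16:87699784-87700478) had a fold of 7.02, with 6.89 in replicate 1 and 6.73 in replicate 2, and a second NFE2 match, which starts 21 bp from its summit. The region beyond the 3′ end, 47.8 kb from the nearest Bach1 start (chr16:87746608-87747085), had a fold of 11.1, with 10.1 in replicate 1 and 9.26 in replicate 2, and none of the motifs searched. It is assigned to Bach1 by distance alone. With 4 distal regions, Bach1 was at a count that 3.89% of protein-coding genes reached, and 7.04% of those with an accessible promoter. Of the 4, the one 1.13 kb from a start is distal by its midpoint but also overlaps the 1 kb window of the accessible promoter. Taking the nearest start over every annotated gene, noncoding ones included, left Bach1 with 4 of its 5 regions.

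Bach2, the related repressor known mostly from B and T lymphocytes, had the smallest share of its length accessible among the 8 genes with a region. The gene spans 347 kb on the plus strand of chromosome 4 (chr4:32238804-32586108), and 1 of its 7 annotated starts had a region. That region (chr4:32248255-32248754), 9.70 kb inside the gene, had a fold of 6.51 in the series list and 6.03 in replicate 1. It was absent from the thresholded list of replicate 2, whose overlap list held it at 5.73. No region lay within 1 kb of the 5′-most start.

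The 3 distal Bach2 regions were stronger than its promoter. The intronic one, 79.6 kb from the nearest Bach2 start (chr4:32337563-32338146), had a fold of 11.7, with 10.5 in replicate 1 and 10.8 in replicate 2, and 7.57% of distal regions had a fold at least as high. Upstream of the gene, a region at 60.6 kb (chr4:32177867-32178570) had a fold of 8.96, with 8.78 in replicate 1 and 7.37 in replicate 2. Another at 67.8 kb upstream (chr4:32170488-32171495) had a fold of 7.06, with 6.91 in replicate 1 and 6.56 in replicate 2, and carries the GATA pair match printed above. Both upstream regions are tied to Bach2 by distance alone. They lie beyond 50 kb, so a limit of 50 kb left Bach2 with 2 regions. Taking the nearest start over every annotated gene, noncoding ones included, also left 2.

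Among the small MAF genes, Mafg had the most regions, all with a fold below that of the Mafk promoter. It spans 8.48 kb on the minus strand of chromosome 11 (chr11:120625117-120633600), and accessible regions, whichever gene they were assigned to, covered 26.4% of the gene and the 1 kb to either side of it. These were 8 regions, 2 more than the 6 assigned to Mafg. Of the 10049 genes with an accessible promoter, 3.72% had at least that share covered, and their median was 4.95%. For Nfe2 the share covered was 21.8%, for Nfe2l1 12.3% and for Bach2 0.310%. The shares were not adjusted for length. The spans they rest on were 10.5 kb for Mafg, 12.2 kb for Nfe2, 14.6 kb for Nfe2l1 and 349 kb for Bach2.

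The folds at Mafg ran from 2.61 to 4.99. The strongest region (chr11:120629406-120629841), over coding sequence, had 4.99 in the pooled list, 4.80 in replicate 1 and 5.07 in replicate 2. The region with the NFE2 match (chr11:120629894-120630341), at an internal start, had 3.33, with 3.10 in replicate 1 and 3.53 in replicate 2. The match starts 24 bp from the summit, and it overlaps an ARE match that runs a few bases beyond it. The region at the 5′ start (chr11:120633536-120633841) had 4.10, with 4.05 in replicate 1 and 4.01 in replicate 2. It and the intronic region next to it (chr11:120632514-120633073, fold 3.98) lie within 1 kb of the start of Gm17586, a lincRNA. Searching whole regions and not summits alone found 1 further NFE2 match, in this intronic region, 322 bp from its summit. The remaining intronic region (chr11:120632146-120632400) had a fold of 3.73 and was in both replicates, at 3.54 and 3.86. The weakest of the 26 (chr11:120630459-120630699), with a fold of 2.61, was in the thresholded list of replicate 1 at 2.74 and not in that of replicate 2, and it was also the only one of the 26 missing from the conservative list.

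Mafk, whose product is the partner of p45 in the NF-E2 complex of red cells, had 1 promoter and 1 intronic region. The promoter region (chr5:139790941-139791636) had a fold of 7.10, with 6.54 in replicate 1 and 7.43 in replicate 2, and 5 KLF matches within 100 bp of its summit. The intronic region 2.42 kb from the nearest start (chr5:139794933-139795248) had a fold of 4.13 in the series list and 4.23 in replicate 1. It was absent from the thresholded list of replicate 2, whose overlap list held it at 3.75. Its summit has an AP1 and an ARE match and no NFE2 match.

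Maff, the small MAF gene known as inducible by stress and cytokines, had no region in the series thresholded list or in that of either replicate. In the overlap list, which carries no IDR threshold, 2 weak regions appeared. One (chr15:79347864-79348062) lay near internal starts, with a fold of 4.23, and in neither replicate's overlap list. The other (chr15:79357694-79357884) lay over coding sequence, with a fold of 3.83, and was in the overlap list of replicate 2 at 4.31. In this looser list all 9 genes had an accessible promoter, against 52.2% of protein-coding genes.

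The overlap list added 17 regions to the 26, for 43 in all. The added ones had folds between 2.62 and 7.04 with a median of 3.66, and 14 of the 17 were distal. Bach2 gained 6, Bach1 and Mafk 3 each, Nfe2 and Maff 2 each and Nfe2l3 1, while Nfe2l1, Nfe2l2 and Mafg gained none. The strongest addition lay 85.2 kb upstream of Bach2 (chr4:32153448-32153708), with a fold of 7.04 in the series overlap list, 6.42 in that of replicate 1 and 5.91 in that of replicate 2. Of the 17 added regions, 5 were also in the conservative list.

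Replicate 1's own thresholded list gave the 9 genes 25 regions and 8 accessible promoters, against 43.4% of protein-coding genes with one in that list. Replicate 2's gave 22 regions and 7 accessible promoters, against 42.6%. All 22 regions of replicate 2 overlapped a replicate 1 region, as 92.0% of all replicate 2 regions did. Of replicate 1's 25 regions, 22 overlapped a replicate 2 region (88.0%), as 86.5% of all replicate 1 regions did. The shares of the family are thus near those of the whole lists. The fold in replicate 1 over that in replicate 2 ran from 0.880 to 1.48 over the 22 shared regions, and 12 were higher in replicate 1 and 10 in replicate 2.

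**Figure D3:**
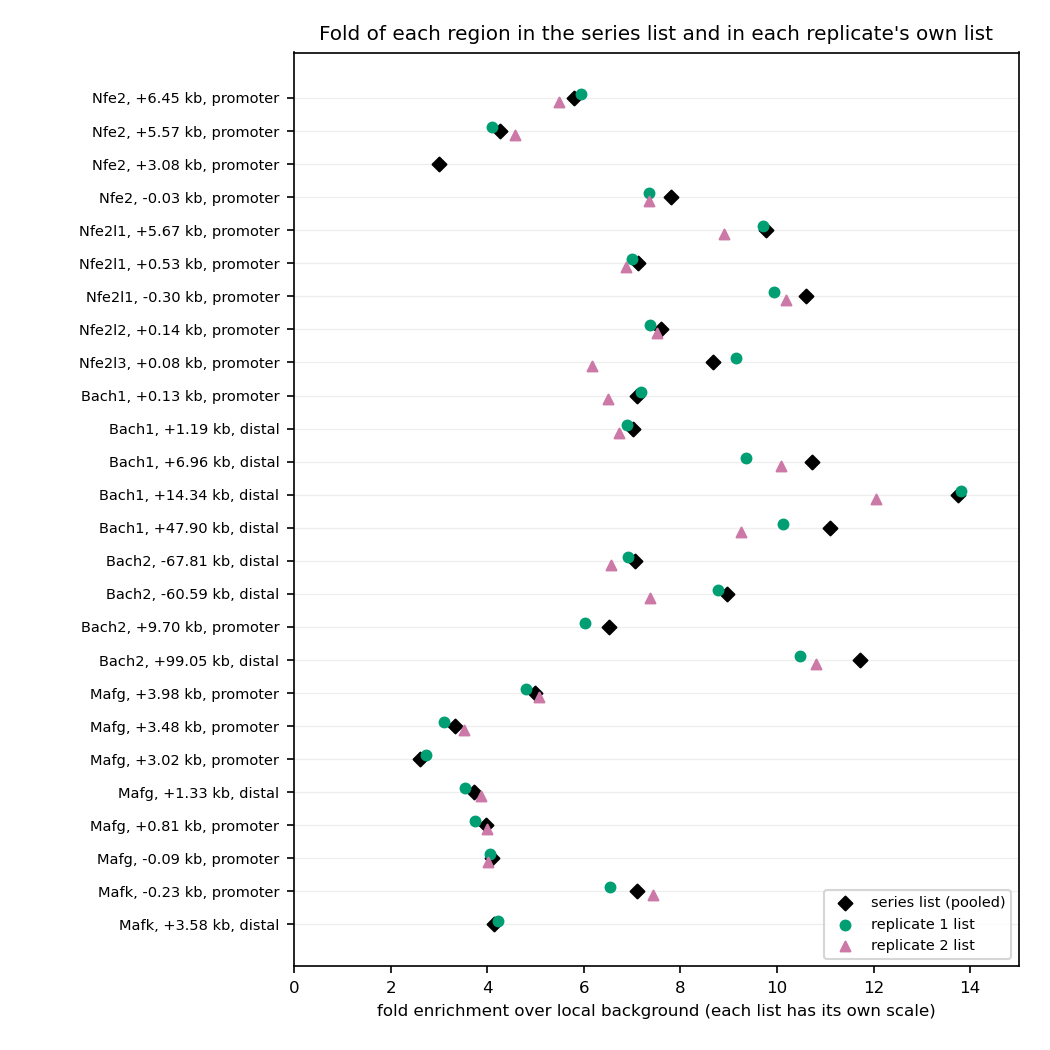
Fold enrichment (x axis) of the 26 regions, one per line, in the series list (diamonds), the replicate 1 list (circles) and the replicate 2 list (triangles), each line named by gene, distance of the midpoint from the 5′-most start in kb and class. A line with no circle or no triangle is a region absent from that replicate's thresholded list; the widest gap between circle and triangle is at Nfe2l3, at 9.14 and 6.17.

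The family's own binding site was present at 3 of the 26 summits (11.5%), within 100 bp to either side, against 1.54% of all regions. These are the 2 Bach1 introns and the internal Mafg start. By class, 1 of 17 promoter regions (5.88%) had an NFE2 match, against 0.526% of all promoter regions, and 2 of 9 distal regions (22.2%), against 2.57% of all distal ones. The regions are few, and those of 1 gene share a locus. Counted by gene, 2 of the 8 family genes with a region had an NFE2 match at a summit, against 3.19% of the 11614 protein-coding genes with a region. These 2 genes, Bach1 and Mafg, had the most regions of the family, 5 and 6. A gene with more regions has more summits that can hold a match, and the shares were not adjusted for this.

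Every NFE2 match holds an AP1 match. AP1 matches were at 5 of the 26 summits (19.2%), against 5.08% of all regions, the other 2 being the Bach1 promoter and the Mafk intron. ARE matches were at 7 (26.9%), against 12.3%, and 2 of the 7 overlap an NFE2 match. They lay at Nfe2, Bach1, Bach2, Mafg and Mafk.

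GATA matches were at 8 of the 26 summits (30.8%), against 33.0% of all regions, which is near the background. GATA pair matches, each of which contains a GATA match, were at 3 (11.5%), against 9.44%. The pair matches were at Nfe2, in 2 promoter regions, and at the Bach2 region 67.8 kb upstream. Among promoter regions alone, 4 of 17 (23.5%) had a GATA match, against 16.7%, and 2 of 17 (11.8%) a pair, against 3.26%. Of the distal regions 4 of 9 (44.4%) had a GATA match, against 49.8%.

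KLF matches were at 12 summits (46.2%), against 29.4%. They were in 10 of 17 promoter regions (58.8%), against 39.6%, and in 2 of 9 distal regions (22.2%), against 18.97%. An ETS match (CCGGAAGT) was at none, against 3.76% of all regions, and NFY matches were at 2 (7.69%), against 26.8%. Both NFY regions were promoter regions (11.8% of 17, against 32.0%), and no distal region had one, against 21.5%. The NFY count depended on the window, since searching whole regions found a match in 8 of the 26. A match is a run of letters and not evidence of binding, and the lack of one says only that these letters are not in the window. In the promoter regions GC content had the same median as in all promoter regions, 63.7%, while the median of observed over expected CpG was 0.591, against 0.786. In distal regions it was 0.335, against 0.228.

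**Figure D4:**
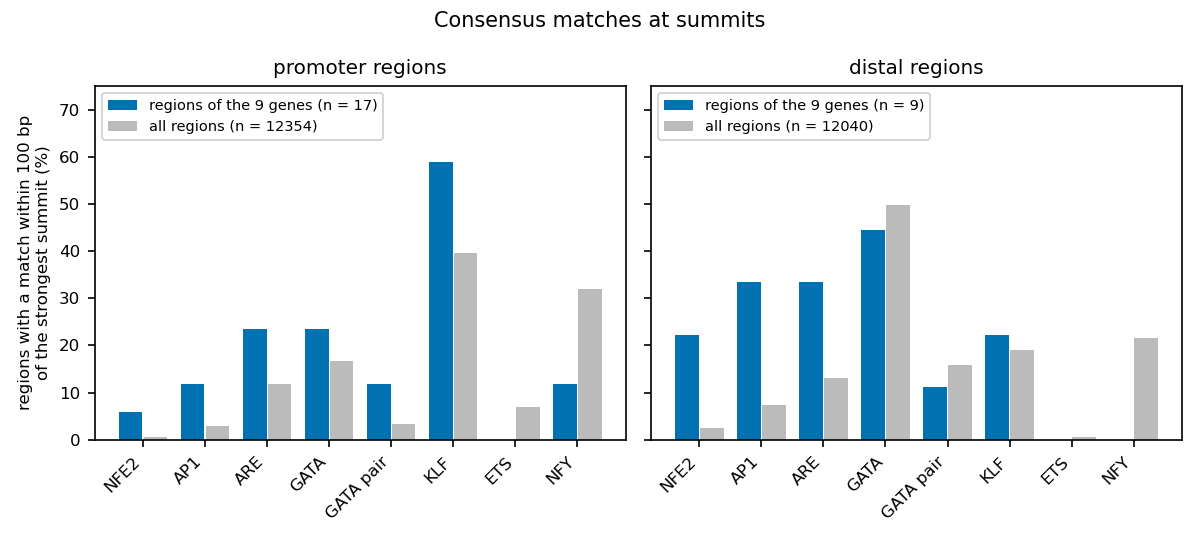
Share of regions (y axis, %) with a match to each motif (x axis) within 100 bp of the strongest summit, for regions of the 9 genes (blue bars) and all regions of the same class (grey bars), in promoter regions (left) and distal regions (right). The NFE2 bars are 5.88% against 0.526% for promoter regions and 22.2% against 2.57% for distal regions; the blue bars rest on 17 and 9 regions.

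RefSeq promoter sequences (GRCm38.p6, 250 bases before to 50 after a start) were matched for 8 of the 9 genes, all but Nfe2. None of these promoters held an NFE2 match, which 0.289% of the 32851 RefSeq promoters did. Of the 14 promoters matched, several of which belong to 1 gene, 4 (28.6%) held an ARE match, against 12.4% of all RefSeq promoters. They were 1 promoter each of Nfe2l2, Maff, Mafg and Mafk. NFY matches were in 5 of the 14 (35.7%), all of Nfe2l1 or Bach2, near the 37.4% of all RefSeq promoters. At the starts in this table, no region of the thresholded or the overlap list overlapped the promoter of Bach2 or any of the 3 of Maff.

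The genes that control NRF and BACH proteins were accessible throughout. All 15 had an accessible promoter, against 45.8% of all protein-coding genes. Among them were Sel1l (fold 17.8), of the endoplasmic reticulum degradation complex that removes NRF1, Rbx1 (13.2), the RING subunit of the cullin ligases, and Btrc (12.9), a ligase adaptor that binds NRF2. Of the 11 AP-1 and related genes, 7 had an accessible promoter (63.6%), against the same 45.8%. Batf2 (10.1), Atf3 (9.97) and Fosb (8.25) led, and Batf, Batf3, Fosl1 and Fosl2 had none.

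Known targets of the antioxidant response element were accessible at 16 of 19 promoters (84.2%), against 45.8% of all protein-coding genes. The conservative list gave 17 of 19 (89.5%). Pgd (fold 14.7), of the pentose phosphate pathway, Prdx1 (12.3), a peroxiredoxin, and Gsr (11.9), glutathione reductase, had the highest folds. Hmox1, heme oxygenase 1 and the classic BACH1 target, had no promoter region in the thresholded list, nor did Me1 or Slc7a11. The overlap list held Hmox1 at 5.34 and Me1 at 3.57. Hmox1 had a distal region 9.80 kb from its start, with an NFE2 match at its summit and a fold of 11.3, with 10.4 in replicate 1 and 10.6 in replicate 2. Of the 17 targets with a region, 5 (Hmox1, Gclc, Fth1, Ftl1 and Tkt) had an NFE2 match at a summit. Of all protein-coding genes with a region 3.19% had one, again not adjusted for regions per gene. Each of these 5 matches was in a distal region. None of the 15 control genes and none of the 8 AP-1 genes with a region had an NFE2 match at a summit.

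Of the 4 genes known as p45 targets in megakaryocytes, Rab27b (6.98), a granule GTPase, and Tbxas1 (5.51), thromboxane synthase, had an accessible promoter, and Selp and Tubb1 did not. Tbxas1 had an NFE2 match in a distal region 8.86 kb from its start, at a fold of 9.67. This gene had 14 regions, 12 of them distal. Among all protein-coding genes with a region, 3.19% had an NFE2 match at a summit, again not adjusted for regions per gene. Megakaryocyte markers were accessible at 3 of 5 promoters in the pooled list, as given above, and their part in the values of this list was not tested.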

How the data were processed

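The analysis began at the deposited peak lists on mm10. Peaks had been called by the authors on each library and on both pooled, per the deposited file listing. Which aligner and peak caller made them, and how Tn5 offsets and duplicates were handled, is not given in the sources used here. A peak's fold is the authors' ratio over local background, with its own scale in each list, and was used only to describe and rank within a list. The −log10 p values were deposited by the authors. The score in column 5, scaled from IDR by the authors, was at least 540 in the thresholded lists.

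Overlapping or touching records were merged, and a region took the fold and summit of its strongest record. Starts came from GENCODE M21. Motifs were searched on both strands within 100 bp of the summit. The computation used Python 3.11.15, pandas 2.3.3, numpy 2.4.6, pysam 0.24.0 and matplotlib 3.10.9, and merging, assignment and motif search were tested on simulated data. No test was run, since there is 1 group. The 9 genes, the related gene lists and the motifs were chosen with earlier results of these data known, and the printed sequences after their matches were seen. The text names every family gene with all its regions, and of each related list the 3 genes with the highest promoter fold and every gene without a promoter region. One further related list is not reported here. Other genes named, those with an NFE2 match among them, were added after their values were seen. Alternatives were other peak lists, single replicates, the upper 50% of regions by fold, a 500 bp promoter window, other assignment rules and other summit windows. An archived overlap list, the series pseudoreplicated list and the ranked lists of single libraries were not used.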

Additional observations from a re-analysis of the deposited data

How the results depend on the processing

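No paired analysis was possible because the 2 libraries form 1 group. Of 174 alternative values, 141 stayed within the limits set for a change and 33 moved. The 26 regions became 43 with the overlap list and 10 when regions below the median fold were dropped (the upper 50%). The 9 distal regions became 14 with the conservative list, 23 with the overlap list and 5 with the upper 50%. Taking the nearest start over every annotated gene gave 22 regions, 6 of them distal, with Bach1 at 4 regions and Mafg at 5. The 8 family promoters became 4 with the upper 50%, and in that setting the AP-1 genes with an accessible promoter became 4 and the megakaryocyte targets of p45 became 0. A 500 bp window left 1 of those megakaryocyte targets. Either replicate alone gave 22 to 25 regions, 8 to 9 distal regions and 7 to 8 family promoters. The number of regions with an NFE2 match was 3 with the conservative list, either replicate alone or a 50 bp summit window. It was 4 with the overlap list or with whole regions searched, and it was not computed for the other alternatives. For NFY the 2 regions became 5 with the conservative list, 6 with the overlap list and 8 with whole regions searched. With the overlap list and with whole regions, ARE regions became 11 and 12, and GATA regions 14 in each. A 50 bp window left 4 ARE regions, and the overlap list gave 20 KLF regions. The share of all regions is not given for these settings. Read depth is unknown, so a gene without a region, such as Maff, is one without a peak past the threshold and not one shown to be closed. The causes of these changes were not tested beyond the construction of each list. Accessibility does not give transcript levels, and no RNA was analysed here.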
